A study of Homo sapiens with 12 samples.

Results

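The genes FUT3, FUT5 and FUT6 (fucosyltransferases), GNE (sialic acid synthesis), and B4GALT1 and GALT (galactose use) were described across 12 RNA-seq libraries of HaCaT cells. They are the 6 genes of the fucosylation, sialic acid and galactose lists that lie in chromosome stretches where gene names and reads match, out of 61498 entries in the count tables. HaCaT is an established line of human keratinocytes. It was used as 4 derivatives, each carrying 1 short hairpin RNA. The control, shControl, has the genotype label WT; shMLL1, shUTX and shNRF2 are labelled as knockdowns of MLL1 (a histone methyltransferase encoded by KMT2A), UTX (a histone demethylase encoded by KDM6A) and NRF2 (an activator of antioxidant genes encoded by NFE2L2). Each derivative was sequenced untreated, after 24 h with 100 µM hydrogen peroxide (H2O2), and after 24 h with 25 µg/mL cerium oxide nanoparticles (CeO2). There was 1 library per combination and no replicate. The labels do not say that libraries came from separate cultures, and the 3 libraries of a derivative are not 3 knockdowns, so p-values measure the spread among these libraries only.

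Glycans on proteins and lipids are built in the Golgi from activated sugars. FUT3, FUT5 and FUT6 are neighbouring paralogs whose enzymes add fucose near the ends of chains and make Lewis antigens, among them the sialyl Lewis structures that selectins bind; FUT3 is the Lewis blood group gene. GNE encodes the enzyme with epimerase and kinase activity that starts sialic acid synthesis. B4GALT1 adds galactose to N-acetylglucosamine, which gives the chains that sialic acid and fucose cap, and GALT (galactose phosphate uridylyltransferase) links dietary galactose to the sugar nucleotide pool.

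Total counts ran from 5388335 to 7670446 per library. Entry names matched reads in only some regions: in 4 stretches, 33 of 33 widely expressed genes reached 30 CPM (counts scaled to a library total of 1000000), against 181 of 911 elsewhere. The stretches were drawn around such genes. Among other coding genes, 66.37% of 455 inside and 32.9% of 18454 outside reached 1 CPM. The stretch of GNE, B4GALT1 and GALT runs over chr9:19375715-37801437 and that of the FUT genes over chr19:867630-6393981 (GRCh38). The KMT2A entry, outside the stretches, fell 9.51-fold in shMLL1 (log2 -3.25 ± 0.24 SE, edgeR adjusted p = 7.06e-07), with 99.7 CPM in the H2O2 library against 32.0 and 35.6 CPM in the other 2. The KDM6A and NFE2L2 entries also lie outside the stretches. KDM6A held 0 or 1 count per shUTX library and 5 or 6 per shControl library. NFE2L2 held 0 counts in all shNRF2 libraries and 1, 12 and 16 in shControl, so both entries were near the floor of detection. Whether the reads of these entries come from the named genes was not tested, so their low counts do not give the level of UTX or NRF2 RNA. The first principal component (29.14% of variance) placed the shUTX libraries at 36.2 to 39.7 and the other libraries at -32.6 to 1.89, with untreated shControl lowest. Of 9 keratinocyte markers, AQP3 (201 to 417 CPM) and TINCR (5.67 to 67.1 CPM) lie in matched stretches; the other keratinocyte markers and all 13 fibroblast, melanocyte and immune markers do not, so those cell types were not checked.

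The FUT paralogs are close in sequence, which bears on how reads are assigned. In the coding sequence, FUT3 and FUT5 were identical at 93.92% of aligned bases, FUT5 and FUT6 at 91.51%, and FUT3 and FUT6 at 89.08% (GENCODE 29 transcripts). Of the distinct runs of 100 bases in FUT3 exons, 7.589% were also found in FUT5 or FUT6, and of runs of 50 bases 13.76%. The following 60-base window of the coding sequence is where FUT3 stands most apart; capitals mark the 19 positions that are not the same in all 3 genes, and at 12 of them the FUT3 base is unlike both others. It covers coding bases 167 to 226 of FUT3, 206 to 265 of FUT5 and 164 to 223 of FUT6, written 5′ to 3′.
FUT3: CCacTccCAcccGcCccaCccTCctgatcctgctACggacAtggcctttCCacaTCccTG
FUT5: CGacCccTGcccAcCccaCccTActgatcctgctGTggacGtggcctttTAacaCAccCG
FUT6: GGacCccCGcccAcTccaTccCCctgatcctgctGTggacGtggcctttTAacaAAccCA

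Sequence before the annotated starts is shown for the 4 members with reads in every library, since the differences between derivatives below concern these genes. Each run comes from RefSeq promoter windows (GRCh38.p14), reads 5′ to 3′ on the gene's strand, and stops before the first base that GENCODE 29 gives as exon. Capitals mark matches, on either strand, to the letters of 5 motifs. The GC box, which Sp factors bind, was searched as GGGCGG. The CCAAT box, which the NF-Y factor binds, was searched by the letters of its name, and the core promoter element called the TATA box as TATAAA. For the core of the antioxidant response element, which NRF2 binds with its partners, the search used TGACNNNGC. Sites of the stress-responsive factor AP-1 were searched as TGACTCA. GNE and B4GALT1 each have 2 starts with a window, and the gene counts cannot tell which was used; the second B4GALT1 window overlaps the first and only the outer one is shown.
GNE, chr9:36277057-36277228, minus strand: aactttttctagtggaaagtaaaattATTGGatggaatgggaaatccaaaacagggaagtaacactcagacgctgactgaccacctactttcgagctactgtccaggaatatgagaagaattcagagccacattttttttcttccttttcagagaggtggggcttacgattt
GNE, chr9:36258500-36258698, minus strand: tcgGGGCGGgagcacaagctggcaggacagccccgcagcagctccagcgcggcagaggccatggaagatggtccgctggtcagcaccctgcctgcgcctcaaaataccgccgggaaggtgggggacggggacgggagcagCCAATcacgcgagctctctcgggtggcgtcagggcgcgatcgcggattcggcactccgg
FUT3, chr19:5851475-5851699, minus strand: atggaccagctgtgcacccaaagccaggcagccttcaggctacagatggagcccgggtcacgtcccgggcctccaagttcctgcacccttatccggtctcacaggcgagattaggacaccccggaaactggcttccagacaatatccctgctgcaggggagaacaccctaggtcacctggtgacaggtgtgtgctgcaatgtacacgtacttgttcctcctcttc
B4GALT1, chr9:33167357-33167586, minus strand: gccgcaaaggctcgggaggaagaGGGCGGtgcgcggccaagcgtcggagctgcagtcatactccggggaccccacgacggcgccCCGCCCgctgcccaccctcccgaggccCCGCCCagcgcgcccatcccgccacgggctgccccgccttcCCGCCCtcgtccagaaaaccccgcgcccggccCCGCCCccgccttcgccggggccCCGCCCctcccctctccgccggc
GALT, chr9:34646425-34646588, plus strand: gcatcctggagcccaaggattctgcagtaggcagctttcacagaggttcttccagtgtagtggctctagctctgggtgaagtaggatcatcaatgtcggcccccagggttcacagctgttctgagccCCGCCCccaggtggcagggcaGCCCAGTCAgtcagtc

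The windows differed widely in base composition. Over the full 250 bases before the start, the B4GALT1 window was 80% G and C with 36 CpG sites and 7 GC boxes, and the inner GNE window was 70% with 27 CpG sites. The outer GNE window was 42% with 4 CpG sites, the FUT3 window 59.2% with 8, and the GALT window 62.8% with 10, against medians of 58% and 11 over 35116 RefSeq windows. A GC box was found in 42.6% of all windows, a CCAAT box in 32%, a TATA box in 10.7%, the antioxidant response element core in 10.9% and the AP-1 letters in 4.2%. The GALT window held 1 match to the antioxidant response element core, which is shown in capitals and overlaps no other motif. No match to it was found in the windows of GNE, FUT3 or B4GALT1. Some matches in the full windows lie outside the runs shown: 1 GC box each in FUT3, B4GALT1 and GALT, and 1 CCAAT box each in GALT and the outer GNE window. A match describes letters only.

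Levels can be compared between genes only per length. As median CPM per kb of exon, B4GALT1 stood at 166 (151 to 204 over the 12 libraries), GNE at 15.7 (10.9 to 33.5), GALT at 8.40 (5.82 to 9.37) and FUT3 at 3.65 (2.34 to 6.94). The ranges of B4GALT1, GNE and GALT did not overlap, and those of GALT and FUT3 did. FUT5 and FUT6 were at or under the limit of detection. FUT5 had 0 counts in all 12 libraries. The limit used for a count of 0 was 3 counts, or 0.391 to 0.557 CPM by library. The exact 95% interval of these 0 counts reached 0.481 to 0.685 CPM by library. FUT6 had 2 counts in untreated shUTX (0.371 CPM, exact 95% interval 0.0450 to 1.34), 1 count in H2O2-exposed shUTX and 0 in the other 10. Each of these counts is within the limit of 3 counts, so no difference between derivatives was detectable for FUT5 or FUT6. An entry on the same strand, ENSG00000267740, covers 82.48% of FUT5's exon bases and also held 0 counts; the sources used here do not give how reads shared by entries were counted.

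**Figure D1:**
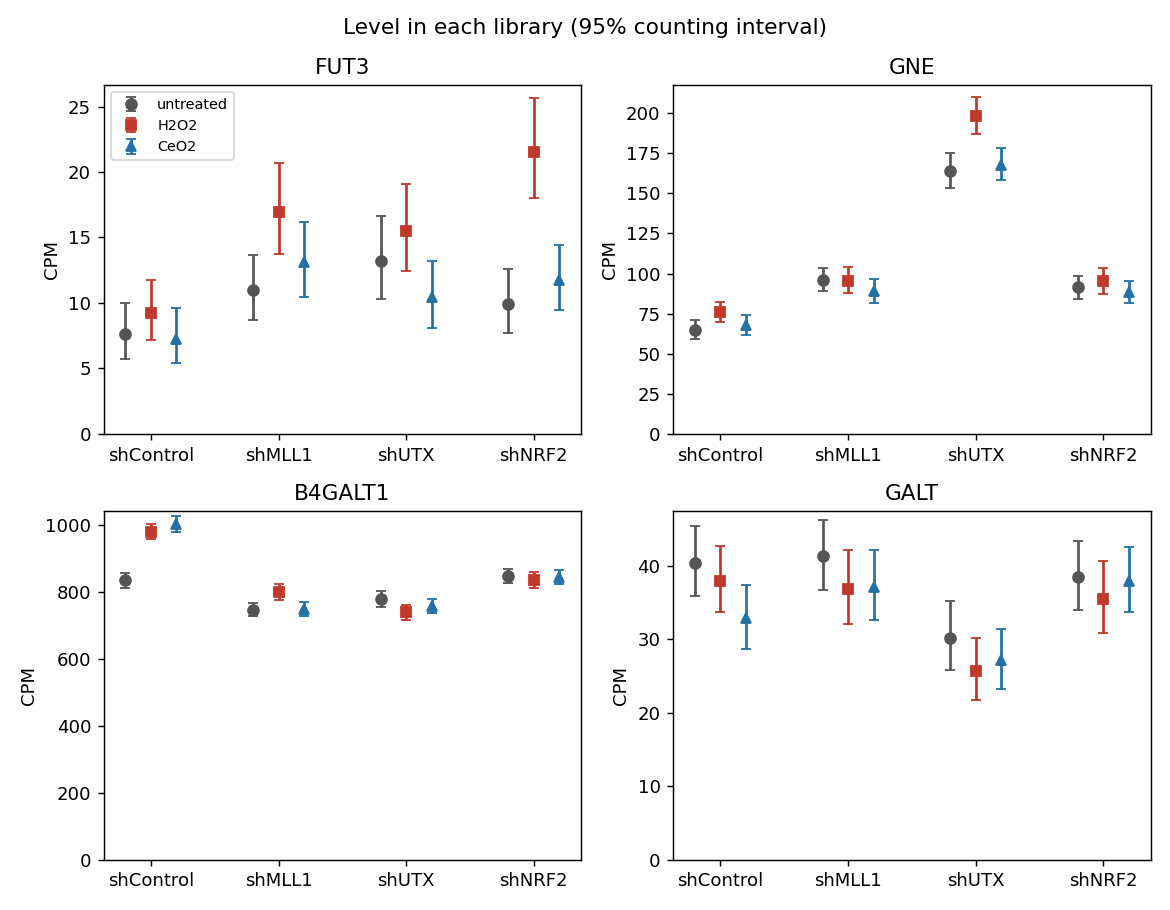
Level of the 4 members with reads in every library, in CPM (vertical axes start at 0), by derivative on the horizontal axis. Each point is 1 library and bars are exact 95% counting intervals; GNE stands between 164 and 198 CPM in the 3 shUTX libraries and at or below 96.1 CPM in the other 9.

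The study's design asks how each hairpin, each exposure and their combination relate to expression. Of the 6 members, 4 passed the filter on low counts (at least 1 CPM in at least 3 libraries, met by 10800 entries, 435 of them in matched stretches) and were tested with edgeR's quasi-likelihood test, adjusted by Benjamini-Hochberg over all 10800. Against shControl, 3 of the 4 passed in shMLL1 (2 higher, 1 lower), 4 in shUTX (2 higher, 2 lower) and 2 in shNRF2 (both higher). The background was 12.2% of all entries and 28% of those in matched stretches called in shMLL1, 26.3% and 39.5% in shUTX, and 5.33% and 9.43% in shNRF2. These counts over the whole table moved with the libraries used: leaving out 1 library gave 667 to 1941 entries in shMLL1 (1320 with all), 1931 to 3088 in shUTX (2842) and 257 to 830 in shNRF2 (576), and fitting only the compared libraries gave 1427 in shUTX and 154 in shNRF2. The 3 comparisons share the shControl libraries. The median log2 change over the 4 members was 0.21, 0.22 and 0.16, against -0.09, -0.07 and -0.07 over the matched stretches. In bulk RNA, fewer cells expressing a gene and less RNA per cell cannot be told apart.

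GNE, on the minus strand of chr9:36214441-36277056 (ENSG00000159921), was the member that differed most. It measured 64.7, 75.9 and 67.9 CPM in untreated, H2O2-exposed and CeO2-exposed shControl. In shUTX it measured 164, 198 and 168 CPM in the same order. The shMLL1 libraries held 96.1, 95.6 and 89.0 CPM, and the shNRF2 libraries 91.3, 95.2 and 88.3 CPM. All 3 shUTX libraries lay above the other 9, and all shMLL1 and shNRF2 libraries lay above all shControl ones while overlapping each other. GNE rose 2.59-fold in shUTX (log2 1.37 ± 0.09 SE, edgeR adjusted p = 7.29e-08), rank 7 from the highest change among 435 matched entries. This call held in all 21 other settings, with log2 changes of 1.30 to 1.43. The rise was 1.32-fold in shMLL1 (log2 0.40 ± 0.09, edgeR adjusted p = 0.00684) and 1.28-fold in shNRF2 (log2 0.36 ± 0.09, edgeR adjusted p = 0.0274). Compared directly, GNE was higher in shUTX than in shMLL1 (log2 0.97 ± 0.09, edgeR adjusted p = 2.40e-06), and lower in shNRF2 than in shUTX (log2 -1.01 ± 0.09, edgeR adjusted p = 1.57e-06). Between shNRF2 and shMLL1 the difference was log2 -0.05 ± 0.09 (edgeR adjusted p = 0.80).

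The smaller GNE differences lost their call when single libraries were left out. In shMLL1 the edgeR adjusted p was 0.0699 without untreated shMLL1. In shNRF2 it was 0.0797 and 0.0503 without H2O2-exposed or CeO2-exposed shControl, 0.0951, 0.0833 and 0.11 without the untreated, H2O2 or CeO2 shNRF2 library, 0.0549 without CeO2-exposed shMLL1, and 0.0545 and 0.0585 without H2O2-exposed or CeO2-exposed shUTX. With only the shNRF2 and shControl libraries fitted it was 0.354. The log2 change in shNRF2 stayed between 0.34 and 0.37 throughout.

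CLTA (clathrin light chain A) overlaps GNE on the opposite strand but shares 0 exon bases with it, and held 453 to 653 CPM. Its shUTX difference from shControl was log2 0.30 ± 0.12 (edgeR adjusted p = 0.080), so CLTA did not pass in this comparison where GNE did. In shUTX against shMLL1, CLTA did not pass either (log2 0.22 ± 0.12, edgeR adjusted p = 0.255). In shNRF2 against shUTX, CLTA was lower, as GNE was, and passed (log2 -0.44 ± 0.12, edgeR adjusted p = 0.0169). GLIPR2, a neighbouring gene, had at most 8 counts in any library.

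**Figure D2:**
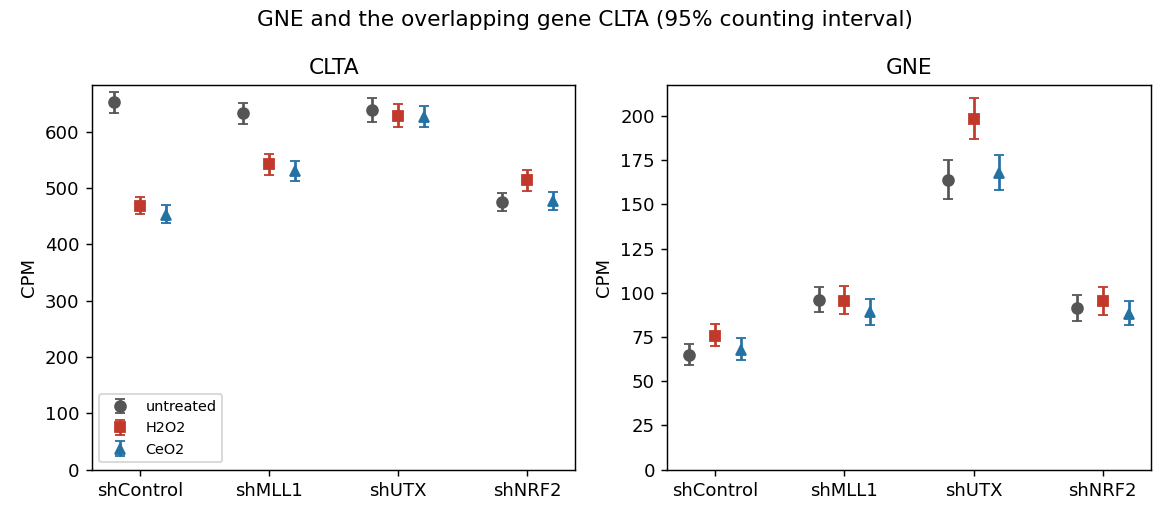
CPM of GNE and of CLTA, which overlaps it on the opposite strand, by derivative; each point is 1 library with its exact 95% counting interval, and each panel has its own vertical axis starting at 0. In shUTX, GNE stands at 164 to 198 CPM, above its values in the other derivatives, while CLTA in shUTX (627 to 639 CPM) lies within the range of the other libraries.

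FUT3, on the minus strand of chr19:5842888-5851474 (ENSG00000171124), was the only fucosyltransferase member measured above the floor. Its counts were 54, 68 and 50 in untreated, H2O2-exposed and CeO2-exposed shControl (7.63, 9.26 and 7.27 CPM). They were 78, 96 and 85 in shMLL1 (11.0, 16.9 and 13.1 CPM), and 71, 90 and 68 in shUTX (13.2, 15.5 and 10.4 CPM). In shNRF2 they were 69, 128 and 90 (9.94, 21.6 and 11.7 CPM). No library of the 3 knockdowns overlapped shControl, but the lowest of them, 9.94 CPM, was close to the highest shControl value, 9.26 CPM. FUT3 rose 1.65-fold in shMLL1 (log2 0.72 ± 0.20, edgeR adjusted p = 0.0243), 1.64-fold in shUTX (log2 0.71 ± 0.20, edgeR adjusted p = 0.0155) and 1.69-fold in shNRF2 (log2 0.75 ± 0.19, edgeR adjusted p = 0.0359). It ranked 14, 24 and 12 from the highest change among the 435 matched entries. The differences between the knockdowns were log2 -0.01 ± 0.19 (shUTX against shMLL1), 0.03 ± 0.18 (shNRF2 against shMLL1) and 0.04 ± 0.19 (shNRF2 against shUTX), none past the threshold (lowest edgeR adjusted p = 0.90).

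The FUT3 calls were sensitive to single libraries. In shMLL1 the edgeR adjusted p was 0.135 and 0.0588 without H2O2-exposed or CeO2-exposed shControl, and 0.0633, 0.0747 and 0.140 without untreated, H2O2-exposed or CeO2-exposed shMLL1. In shUTX it was 0.0913 without H2O2-exposed shControl and 0.0931 without untreated shUTX. In shNRF2 it was 0.213 and 0.0944 without H2O2-exposed or CeO2-exposed shNRF2, 0.173 and 0.0597 without H2O2-exposed or CeO2-exposed shControl, 0.0549, 0.0613 and 0.0542 without untreated, H2O2-exposed or CeO2-exposed shMLL1, and 0.0629 and 0.0551 without H2O2-exposed or CeO2-exposed shUTX. It was 0.0514 with DESeq2 and 0.242 with only the shNRF2 and shControl libraries. Counts of FUT3, FUT5 and FUT6 summed gave the same calls. An antisense entry, ENSG00000267709, shares 126 of FUT3's 3109 exon bases and held 0 to 4 counts. The keratinocyte marker TINCR, a non-coding RNA of epidermal differentiation, moved in the same comparisons: it rose 3.82-fold in shMLL1, 5.74-fold in shUTX and 10.2-fold in shNRF2 (edgeR adjusted p = 7.71e-06, 2.61e-07 and 5.53e-08). The other measurable marker, AQP3, rose 1.56-fold in shNRF2 (edgeR adjusted p = 0.0045), with an adjusted p of 0.551 in shMLL1 and 0.866 in shUTX. Their part in the FUT3 result was not tested.

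B4GALT1, on the minus strand of chr9:33104082-33167356 (ENSG00000086062), was the most abundant member and was lower in 2 knockdowns. It held 833, 978 and 1002 CPM in untreated, H2O2-exposed and CeO2-exposed shControl, and 746, 798 and 749 CPM in shMLL1. In shUTX it held 776, 738 and 757 CPM, and in shNRF2 846, 835 and 844 CPM. All shMLL1 and shUTX libraries lay below all shControl ones; the shNRF2 libraries lay just above untreated shControl and below both exposed ones. B4GALT1 fell 1.25-fold in shMLL1 (log2 -0.32 ± 0.07, edgeR adjusted p = 0.0071) and 1.21-fold in shUTX (log2 -0.28 ± 0.07, edgeR adjusted p = 0.00905). In shNRF2 the change was log2 -0.19 ± 0.07 (edgeR adjusted p = 0.129), and 0.0217 without untreated shControl. Against the same treatment in shControl, the ratio of CPM in shMLL1 was 0.895 untreated (exact 95% counting interval 0.862 to 0.929), 0.816 with H2O2 and 0.747 with CeO2. In shUTX the ratios were 0.932 (0.896 to 0.970), 0.755 and 0.755. In CPM, which uses library totals only, the gap to shControl was thus smallest in the untreated libraries. The test of that difference, with TMM scaling, is given with the exposures. The edgeR adjusted p was 0.0794 in shMLL1 without CeO2-exposed shMLL1, 0.0541 in shUTX without H2O2-exposed shUTX, and 0.149 in shUTX with only the shUTX and shControl libraries.

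The antisense gene B4GALT1-AS1 shares 72 of B4GALT1's 4901 exon bases and held 5 to 24 counts per library, against 4184 to 7180 for B4GALT1. The neighbour SMU1, a splicing factor gene, differed from shControl by log2 0.07 in shMLL1 and 0.18 in shUTX (edgeR adjusted p = 0.606 and 0.101). Neither B4GALT1-AS1 nor SMU1 passed in these 2 comparisons.

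GALT, on the plus strand of chr9:34638133-34651035 (ENSG00000213930), was lower in shUTX. It held 40.4, 38.0 and 32.9 CPM in untreated, H2O2-exposed and CeO2-exposed shControl, and 30.3, 25.7 and 27.1 CPM in shUTX. The shMLL1 libraries held 41.3, 36.9 and 37.2 CPM and the shNRF2 libraries 38.5, 35.5 and 37.9 CPM. The 3 shUTX libraries were the lowest of the 12, and the other 3 derivatives overlapped. GALT fell 1.32-fold in shUTX against shControl (log2 -0.40 ± 0.12, edgeR adjusted p = 0.0204) and 1.34-fold against shMLL1 (log2 -0.42 ± 0.12, edgeR adjusted p = 0.0215). It was 1.29-fold higher in shNRF2 than in shUTX (log2 0.36 ± 0.12, edgeR adjusted p = 0.0347). In shMLL1 and shNRF2 the change against shControl was log2 0.02 ± 0.11 and -0.03 ± 0.11 (edgeR adjusted p = 0.935 and 0.905).

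The GALT calls did not survive every omission. Against shControl the edgeR adjusted p was 0.0711 without H2O2-exposed shControl, 0.0650 and 0.0783 without untreated or H2O2-exposed shUTX, and 0.136 with only these 2 derivatives. Against shMLL1 it was 0.0907, 0.0658 and 0.0848 without untreated, H2O2-exposed or CeO2-exposed shMLL1, 0.0809, 0.0975 and 0.0538 without the same shUTX libraries, and 0.0640 with no filter. Between shNRF2 and shUTX it was 0.102, 0.130 and 0.0761 without untreated, H2O2-exposed or CeO2-exposed shUTX, 0.0898 and 0.160 without H2O2-exposed or CeO2-exposed shNRF2, 0.0533, 0.0509 and 0.0545 without the 3 shMLL1 libraries, 0.0829 with no filter and 0.0838 with DESeq2. GALT shares 492 of its 4407 exon bases with ENSG00000258728, a coding entry on the same strand (0 to 12 counts), and 334 with IL11RA (a cytokine receptor gene, 1.03 to 5.24 CPM), which fell 3.13-fold in shUTX (log2 -1.65 ± 0.30, edgeR adjusted p = 0.00102). The part of the shared bases in the GALT result was not tested.

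Comparisons between knockdowns gave 2 members called in shUTX against shMLL1, 0 in shNRF2 against shMLL1 and 2 in shNRF2 against shUTX, and in each the called ones were GNE and GALT. The background was 18% of all entries and 38.2% of matched entries for the first, 11.3% and 28.7% for the second, and 23.4% and 38.6% for the third. For shNRF2 against shMLL1, edgeR gave 0 members at an unadjusted p under 0.05 and no other setting called one.

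**Figure D3:**
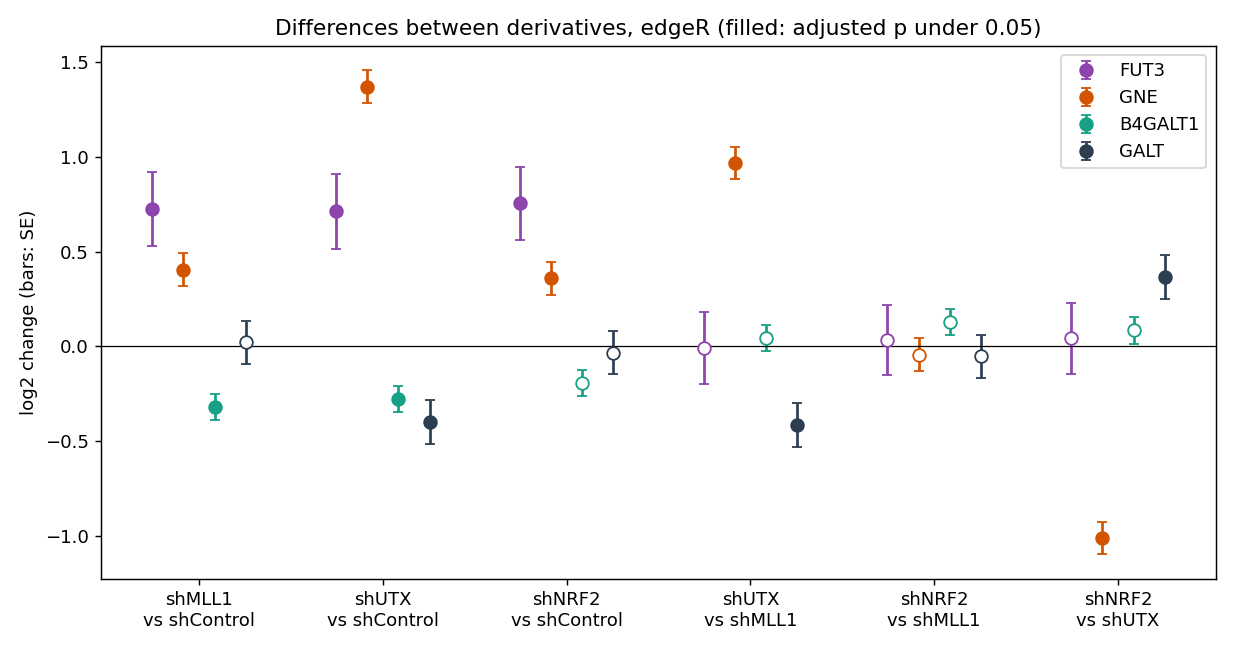
Log2 change of each tested member between derivatives (vertical axis), with the SE as bars, for the 6 comparisons on the horizontal axis; filled points have an edgeR adjusted p under 0.05. GNE and FUT3 are filled and above 0 in all 3 comparisons with shControl, and GNE and GALT are the filled points where shUTX is compared with another knockdown.

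**Figure D4:**
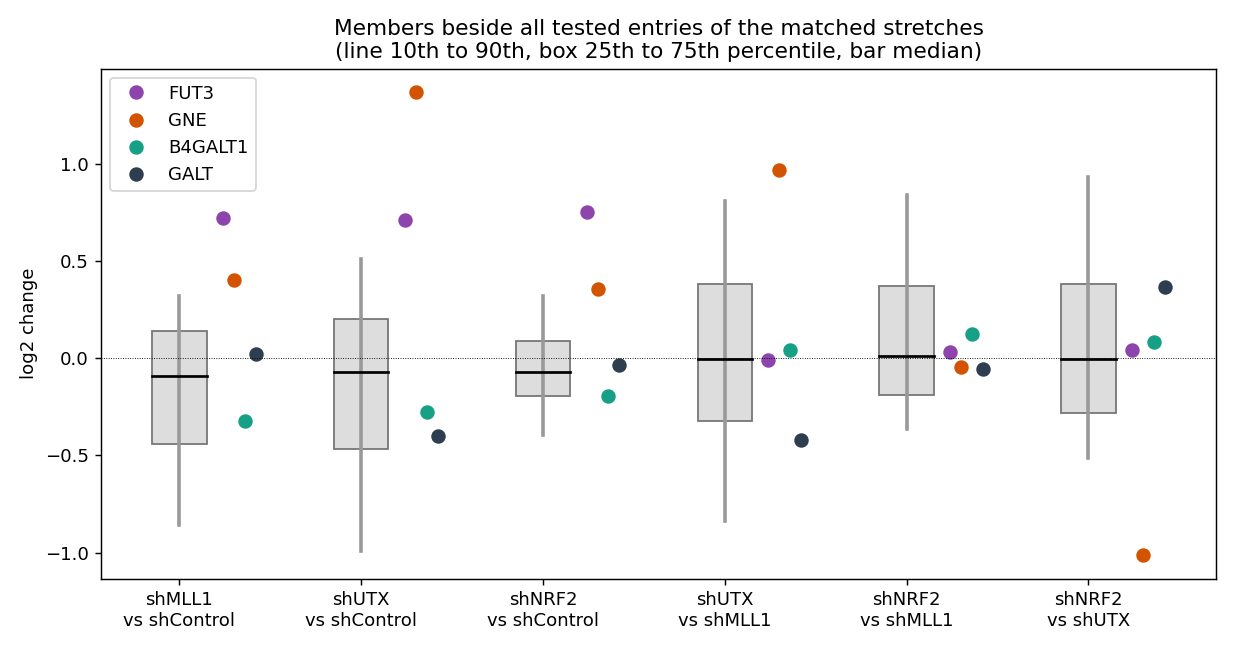
Log2 change of the 4 members (points) beside the 435 tested entries of the matched stretches (line from the 10th to the 90th percentile, box from the 25th to the 75th, bar at the median) in the same 6 comparisons. FUT3 lies above the 90th percentile in all 3 comparisons with shControl, and GNE in shUTX lies at 1.37 against a 90th percentile of 0.51.

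Neither exposure moved a member past the threshold across derivatives. In edgeR, 0 of 4 members were called for H2O2, where 0% of all entries were called, and 0 of 4 for CeO2, where 0.0185% were. At an unadjusted p under 0.05, edgeR gave 2 members for H2O2 (FUT3 and GALT) and 1 for CeO2 (GALT); DESeq2 and limma-voom called none of them. Over all entries, 2102 had an unadjusted p under 0.05 for H2O2, and DESeq2 called 152, limma-voom 0 and edgeR with no filter 651. For CeO2 the same 3 settings called 44, 0 and 543. None of these settings called a member.

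FUT3 had the largest H2O2 value of the 4, log2 0.52 ± 0.16 (edgeR adjusted p = 0.152), and was higher with H2O2 than untreated in 4 of 4 derivatives. The ratio of CPM was 1.21 in shControl (exact 95% counting interval 0.836 to 1.77), 1.55 in shMLL1 (1.13 to 2.11), 1.18 in shUTX (0.852 to 1.63) and 2.17 in shNRF2 (1.61 to 2.95). In shMLL1 and shNRF2 the interval, which covers counting error only, lay above 1. With CeO2 the FUT3 ratios ran from 0.791 in shUTX to 1.20 in shMLL1, and every interval held 1.

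GALT was lower in the exposed than in the untreated library in all 8 ratios, from 0.813 (CeO2 in shControl) to 0.987 (CeO2 in shNRF2). The H2O2 and CeO2 ratios of a derivative share its untreated library, and 7 of the 8 counting intervals held 1. The change was log2 -0.22 ± 0.10 for H2O2 (edgeR adjusted p = 0.25) and -0.23 ± 0.10 for CeO2 (edgeR adjusted p = 0.26). GNE changed by log2 0.08 ± 0.07 with H2O2 and -0.09 ± 0.07 with CeO2 (edgeR adjusted p = 0.607 and 0.553). B4GALT1 changed by log2 -0.01 ± 0.06 and -0.02 ± 0.06 (edgeR adjusted p = 0.962 and 0.916).

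For B4GALT1 the CPM ratios of the derivatives did not share a direction. These ratios use library totals only, while the edgeR tests also used TMM scaling, so their sizes can differ. How far the B4GALT1 pattern depends on the scaling was not tested. The CPM ratio to untreated was 1.17 with H2O2 (1.13 to 1.22) and 1.20 with CeO2 (1.16 to 1.25) in shControl, whereas in shUTX it was 0.951 (0.911 to 0.992) and 0.975 (0.935 to 1.02). In shNRF2 it was 0.987 and 0.999, and in shMLL1 1.07 and 1.00. The 2 shControl ratios share 1 untreated library. Whether a knockdown changed the response to exposure was tested with a term for each derivative, exposure to either agent and their products. This fit left 4 residual degrees of freedom and is exploratory. Each untreated library is fitted exactly in it, so the spread comes only from differences between the H2O2 and CeO2 libraries of a derivative. For B4GALT1 the difference in response from shControl was log2 -0.10 ± 0.12 in shMLL1, -0.14 ± 0.12 in shUTX and -0.09 ± 0.12 in shNRF2 (edgeR adjusted p = 0.787, 0.539 and 0.709). For FUT3 in shNRF2 it was 0.77 ± 0.51 (edgeR adjusted p = 0.379). None of the 4 members was called in any of the 3 tests, none had an unadjusted p under 0.05 in edgeR, and DESeq2 and limma-voom called none. The background was 0.00926% of entries for shMLL1, 9.13% for shUTX and 11.2% for shNRF2.

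**Figure D5:**
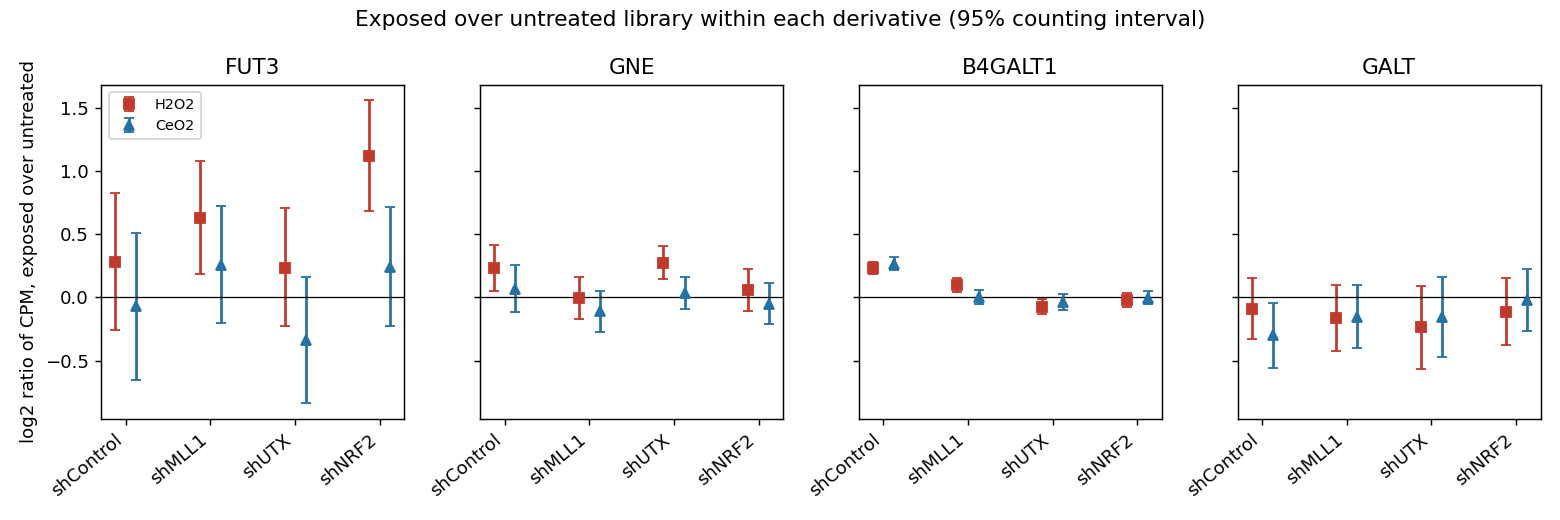
Log2 ratio of CPM (library totals only, no TMM scaling) in the exposed over the untreated library within each derivative (vertical axis, shared). Squares are H2O2 and triangles CeO2, with exact 95% counting intervals. FUT3 with H2O2 is above 0 in all 4 derivatives and highest in shNRF2, all 8 GALT ratios lie below 0, and B4GALT1 is above 0 for both agents in shControl.

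Over the 12 libraries the members did not move as 1 group. Pearson's r of log2 CPM was 0.46 between FUT3 and GNE, -0.76 between GNE and GALT, -0.66 between FUT3 and B4GALT1, -0.60 between GNE and B4GALT1, -0.29 between FUT3 and GALT, and 0.28 between B4GALT1 and GALT. The libraries fall into derivatives, so these values are descriptions. Among 345 other entries of the matched stretches with a mean of at least 5 CPM, those most like FUT3 were TICAM1 (r = 0.79), ACER2 (0.76) and TERT (0.75). Those most like GNE were ZNF131 (0.94), PLCXD3 (0.93) and UBAP2 (0.93). For B4GALT1 they were DNAH5 (0.95), APC2 (0.89) and MIR210HG (0.88), and for GALT they were IFT74 (0.96), PSPN (0.92) and ARHGEF39 (0.91).

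Few other genes of these pathways could be read. Matched stretches held 3 of 21 genes of the fucosylation list, 1 of 32 of the sialic acid list and 2 of 24 of the galactose list, which are the 6 members themselves. A further list of 7 glycan genes lies wholly in the stretches; 5 were tested, and UGT3A1 and UGT3A2 had 2 and 1 counts over all libraries. In shMLL1, 1 of the 5 fell and 2 rose against shControl, where 12.2% of all entries and 28% of matched entries were called. GOLPH3, which holds glycosyltransferases in the Golgi, fell 1.53-fold (log2 -0.62 ± 0.07, edgeR adjusted p = 6.45e-05). PIGO, of GPI anchor synthesis, rose 1.23-fold (edgeR adjusted p = 0.0219), and PGGHG, a glucosidase of collagen glycans, rose 1.46-fold (edgeR adjusted p = 0.0118).

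In shUTX, 2 of the 5 passed, where 26.3% of all entries and 39.5% of matched entries did. B4GALNT4, which adds N-acetylgalactosamine to N-acetylglucosamine, rose 1.63-fold (log2 0.71 ± 0.24, edgeR adjusted p = 0.0441) and PGGHG fell 1.69-fold (log2 -0.76 ± 0.14, edgeR adjusted p = 0.00122). GOLPH3 differed there by log2 0.20 ± 0.07 (edgeR adjusted p = 0.0641). In shNRF2, PGGHG rose 1.52-fold (log2 0.60 ± 0.13, edgeR adjusted p = 0.0127) and was the 1 of 5 that passed, where 5.33% of all entries and 9.43% of matched entries did. GBA2, a glucosylceramidase, stayed between 119 and 133 CPM in all 12 libraries and passed in no comparison. None of the 5 passed for H2O2 or CeO2 (lowest edgeR adjusted p = 0.205 and 0.238).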

How the data were processed

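Total RNA was sequenced (TruSeq libraries). The submitters' processing notes name GRCh38, HTSeq 0.11.1, SAMtools 1.12, HISAT2 2.2.1 and Trimmomatic 0.39, with no roles; strand use, annotation and settings are not given in the sources that were used. The authors deposited 2 tables of read counts (whole numbers) by Ensembl identifier, 1 per agent. Both hold the untreated libraries, whose counts were read from the table of H2O2; 1 cell differs between them. Of 61498 identifiers, 61399 matched a gene name and 58298 GENCODE 29.

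Matched stretches were runs of 944 widely expressed genes at 30 CPM or more, found with a hidden Markov model (high gene 0.95 inside, 0.25 outside, switch 0.02; at least 3 genes, median at least 150 CPM). The members, stretches, lists and tests were chosen with earlier results of these data known.

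Counts were scaled by TMM and fitted with edgeR 4.0.16 (two-sided quasi-likelihood test, threshold 0.05 after Benjamini-Hochberg adjustment) by derivative plus treatment, with 6 residual degrees of freedom. The SE is the log2 change divided by the root of the F statistic. CPM values and ratios of CPM use library totals only, without TMM. Intervals are exact (Poisson, or conditional binomial for ratios) and, like the limit of 3 counts at 0, cover counting error only. Other settings were RLE and upper-quartile scaling, no filter, a filter at 5 CPM, DESeq2 1.42.0, limma-voom 3.58.1, the other table's untreated counts, summed FUT counts, only the compared libraries, and each library left out (for the changed response, each exposed library). Code was tested on simulated counts. Named genes were all members, their overlapping and nearest coding genes (some are not reported here), the 3 entries most like each member, listed genes in matched stretches, and the targeted genes.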

Additional observations from a re-analysis of the deposited data

How the results depend on the processing

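Of 273 alternatives to the 13 called member differences, 221 kept the call, 52 lost it and 0 changed sign; leaving out 1 library left fewer libraries in the fit. Of 591 alternatives to the 31 uncalled ones, 1 gained a call and 29 changed sign. The 3 GNE comparisons with shUTX kept their call throughout.

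The number of members called in shUTX against shControl was 2 with only the libraries compared. In shNRF2 against shControl it was 1 with DESeq2 and 0 with only the libraries compared. In shUTX against shMLL1 it was 1 with no filter, and in shNRF2 against shUTX it was 1 with no filter and 1 with DESeq2. The cause was not tested. With each library left out it ran from 1 to 3 in shMLL1, 2 to 4 in shUTX and 0 to 3 in shNRF2 against shControl, and from 1 to 2 in shUTX against shMLL1 and in shNRF2 against shUTX.

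Signs changed as follows. GALT in shMLL1 against shControl was -0.0050 (log2) with a filter at 5 CPM and ran from -0.0850 to 0.0743 over omissions. GALT ran from -0.14 to 0.0350 in shNRF2 against shControl and from -0.12 to 0.0158 against shMLL1. FUT3 in shUTX against shMLL1 was 0.0090 with FUT counts summed and ran from -0.14 to 0.0851. FUT3 ran from -0.20 to 0.21 in shNRF2 against shMLL1, from -0.19 to 0.22 in shNRF2 against shUTX, and from -0.20 to 0.0492 for CeO2. GNE in shNRF2 against shMLL1 ran from -0.0941 to 0.0156. B4GALT1 ran from -0.0450 to 0.0025 for H2O2 and from -0.0511 to 0.0068 for CeO2. The changed response of FUT3 in shUTX was -0.0309 with no filter, -0.0107 with limma-voom and -0.0213 with FUT counts summed, and ran from -0.28 to 0.28. That of GNE in shNRF2 was -0.0210 with no filter and ran from -0.0692 to 0.12.

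The labels give no replicate numbers, so no block by number was fitted; the fit by derivative plus treatment already compares derivatives within treatments. Depth limits FUT3 (50 to 128 counts per library) most among the tested members.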

Other observations

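CLTA, which overlaps GNE on the other strand, was higher in untreated shControl (653 CPM) than in H2O2-exposed or CeO2-exposed shControl (469 and 453 CPM), while in shUTX it held 639, 629 and 627 CPM and in shNRF2 475, 514 and 477 CPM. In the exploratory test of a changed response, its response to exposure differed from that of shControl by log2 0.64 ± 0.13 in shUTX (edgeR adjusted p = 0.00824) and 0.73 ± 0.13 in shNRF2 (edgeR adjusted p = 0.00345). In shMLL1 the difference was 0.36 ± 0.13 (edgeR adjusted p = 0.274). NDUFA11, a subunit gene of respiratory complex I and the neighbour of the FUT genes, gave 0.84 ± 0.17 in shUTX and 0.87 ± 0.16 in shNRF2 (edgeR adjusted p = 0.00694 and 0.00465). Both results rest on 1 untreated shControl library, and both genes were described because of their place beside members.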
